A study of Mus musculus with 9 samples.

Results

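The 10 genes described here encode the core of the BCL2 family that was listed for these mouse mammary aggregates. Bcl2, Bcl2l1 and Mcl1 encode pro-survival proteins, Bax and Bak1 encode the pore-forming effectors, and Bid, Bcl2l11, Bbc3, Pmaip1 and Bmf encode BH3-only death signals. They were found by name in the deposited count table, as 10 of 54456 gene names. All 10 passed the filter on low counts that left 18051 genes for testing, and they were taken by name, without a rule on their level.

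BCL2 family proteins decide whether the outer mitochondrial membrane is opened, which releases cytochrome c and starts the caspase cascade. BH3-only proteins are switched on by stress, growth factor loss or detachment. They bind the pro-survival members or act on BAX and BAK directly. Anoikis is the form of this death that follows loss of contact with the matrix, and BIM (Bcl2l11) and BMF are its best known triggers in mammary epithelium, where they are linked to the clearing of the duct lumen. BCL-XL is the protein of Bcl2l1, PUMA that of Bbc3 and NOXA that of Pmaip1.

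All groups shared the same source and treatment. Wild-type (WT) mouse mammary epithelial cells were sorted by flow cytometry, joined into aggregates and placed in 80% Matrigel about 100 µm from heparin sulfate beads of 100 to 150 µm that had been soaked in FGF10 at 100 µg/mL. Aggregates of basal cells alone, of luminal cells alone and of a 50% mixture of both were collected during migration, with 3 RNA sequencing libraries each. The treatment label gives 56 h and the sample titles give 55 h. The stated question was the role of each cell type when the aggregates migrate together, read from their mRNA. The labels give no age or strain of the mice, no aggregate without FGF10 was among the samples, and nothing says that the libraries are from separate animals or cultures. The p-values therefore measure only the spread between these libraries, which may be technical.

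The libraries held 15585324 to 19164405 counts, so that 3 counts correspond to 0.152 to 0.187 CPM (read counts scaled for library size and by TMM). In the pure groups markers followed the labels. The summed level of 10 basal markers was 10558 to 11975 CPM in basal and 1638 to 3053 CPM in luminal libraries. That of 10 luminal markers was 3556 to 3995 CPM in basal and 7971 to 10937 CPM in luminal libraries. Mixed libraries held 6709 to 7934 CPM of the basal and 9788 to 11391 CPM of the luminal markers. Their median luminal sum, 10538 CPM, exceeded the 8834 CPM of luminal libraries and so did not lie between the pure groups. Krt19 alone averaged 4537 CPM in mixed against 1336 CPM in luminal libraries. Elf5, Kit, Esr1 and Prlr also averaged higher in mixed than in luminal libraries, and Krt8, Krt18, Cldn4, Muc1 and Epcam averaged lower. The 5 proliferation markers summed to 874 to 1189 CPM in basal, 38.9 to 57.6 CPM in luminal and 725 to 883 CPM in mixed libraries, and the part of this difference in the values below was not tested. Nor was that of transcripts of the mitochondrial genome, which took 2.89% to 3.07% of counts in basal, 1.32% to 1.63% in luminal and 3.67% to 3.98% in mixed libraries, so that the groups did not overlap. By the prefix of their column name, the libraries form 3 code series. Series A holds basal 2 and all mixed libraries, series B holds basal 1, basal 3 and luminal 1, and series C holds luminal 2 and 3. What the prefixes stand for is not given in the sources used here.

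Measured per kilobase of exon, which allows levels to be compared between genes, Bax and Mcl1 stood highest in every group. Basal libraries averaged 62.3 ± 9.07 CPM per kilobase of Bax and 54.5 ± 3.56 of Mcl1 (SD, n = 3). Bid followed with 15.7 ± 2.19, Bcl2l1 with 14.5 ± 2.29, Bbc3 with 10.8 ± 1.22, Bcl2l11 with 8.61 ± 0.847 and Bcl2 with 5.42 ± 1.03 CPM per kilobase. Bak1, Pmaip1 and Bmf were the lowest, at 3.88 ± 3.53, 1.5003 ± 0.406 and 0.708 ± 0.0485 CPM per kilobase. The lengths are the summed exons of all isoforms under a gene name, so a gene with many alternative exons appears lower than its transcripts are. In luminal libraries Bcl2l1 averaged 54.1 ± 9.07 CPM per kilobase and stood behind only Bax at 84.5 ± 20.6 and Mcl1 at 73.5 ± 5.43. In mixed libraries Bcl2l1 at 23.1 ± 3.002 and Bid at 22.8 ± 2.98 CPM per kilobase differed by less than their spread.

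**Figure D1:**
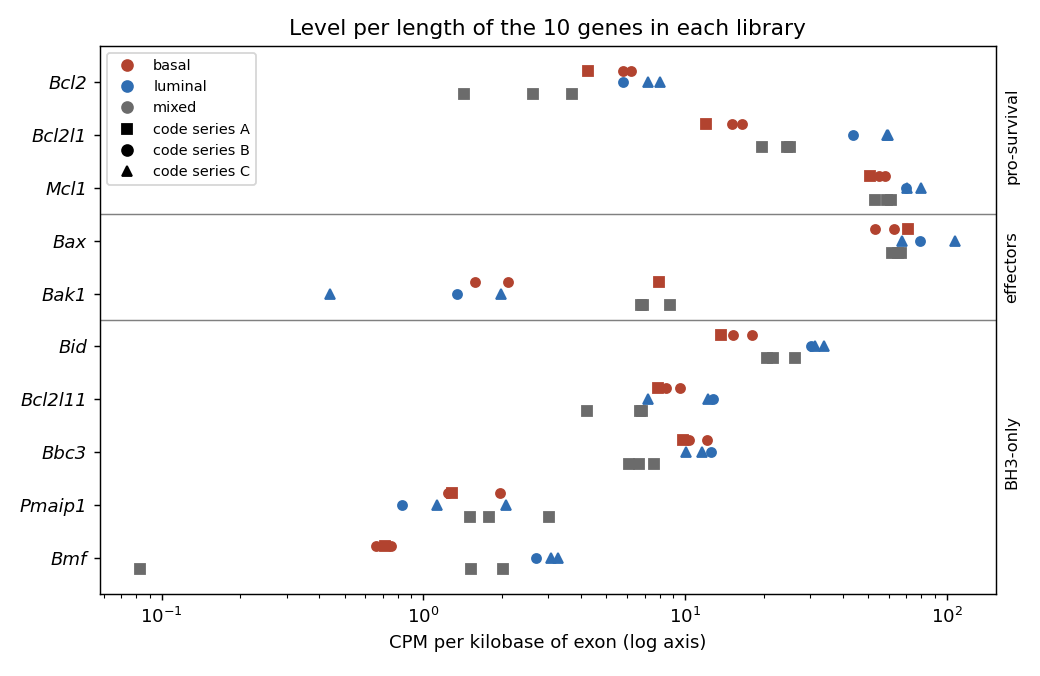
Level of each of the 10 genes in CPM per kilobase of exon (log axis), 1 point per library, coloured by group and shaped by code series, with the genes ordered by role. Bax and Mcl1 lie furthest to the right in every group, and the luminal points of Bcl2l1, at 43.7 to 59.7, lie close to those of Mcl1, at 70.0 to 79.7.

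Luminal aggregates carried more Bcl2l1 and more Bid mRNA than basal aggregates. Both genes rose in this comparison, 3.73-fold and 2.03-fold. The other 8 genes did not pass the test. None of the 10 passed as lower, although Bak1 and Pmaip1 had lower means in luminal libraries. Luminal aggregates thus held more mRNA both of a pro-survival gene and of a BH3-only gene, and the share of 2 in 10 members called compares with 27.1% of all 18051 tested genes called in either direction, with 12.8% higher and 14.4% lower. Higher genes made up 47.0% of these calls, and 35.0% when libraries were scaled by their size alone. Calls use an adjusted p under 0.05 in edgeR's quasi-likelihood test with Benjamini-Hochberg adjustment over all tested genes. In these bulk samples, fewer cells of a type and less RNA per cell cannot be told apart.

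Bcl2l1 lies on mm39 chromosome 2, from 152622588 to 152673648 on the minus strand. It was measured at 69.4, 54.999 and 75.4 CPM in basal 1, 2 and 3, at 200.3, 274 and 271 CPM in luminal 1, 2 and 3, and at 90.2, 112 and 115 CPM in mixed 1, 2 and 3. Every luminal library stood above every mixed library, and every mixed library above every basal one. The luminal minus basal log2 difference was 1.90 ± 0.19 (SE, adjusted p = 2.4e-05 in edgeR's quasi-likelihood test). With the code series as a term in the edgeR fit it was 1.47, which rests on luminal 1 as the lone luminal library of series B. In each of the 20 processing alternatives the call held, with differences from 1.47 to 2.04. The fit without series C also has luminal 1 as its lone luminal library.

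Bid encodes the BH3-only protein that caspase-8 cleaves and so links death receptors to mitochondria. It lies on chromosome 6, from 120868891 to 120893814 on the minus strand, and 17.7% of its exon bases are also covered by Bcl2l13 on the plus strand. Counts stood at 54.2, 48.6 and 64.0 CPM in basal, at 107, 111 and 119.9 CPM in luminal and at 93.1, 77.1 and 73.1 CPM in mixed libraries 1, 2 and 3. As for Bcl2l1, the 3 groups did not overlap and the mixed libraries lay between the others. Luminal exceeded basal by 1.02 ± 0.16 log2 units (adjusted p = 7.5e-04, edgeR). With the code series as a term it was 0.86, which again sets luminal 1 alone against basal 1 and 3. All 20 alternatives kept this call, among them that fit and the fit without series C, where luminal 1 is also alone. Its overlapping neighbour Bcl2l13 differed by 0.20 ± 0.19 in the same contrast (adjusted p = 0.49).

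Bmf, whose protein is released from the actin-bound motor complex on detachment, had the largest luminal minus basal difference of the 10 genes without passing. It lies on chromosome 2, from 118359238 to 118380168 on the minus strand. Libraries held 3.96, 3.75 and 3.45 CPM in basal, 14.2, 16.1 and 17.2 CPM in luminal, and 8.01, 10.6 and 0.436 CPM in mixed 1, 2 and 3. The last of these values rests on 8 counts, against 140 and 172 counts in mixed 1 and 2. Luminal libraries all stood above basal libraries, and mixed 3 fell below every other library. The difference was 2.09 ± 0.70 log2 units (adjusted p = 0.053). The fit takes 1 estimate of the spread from all 3 groups. With mixed 3 left out it was 2.08 ± 0.25 (adjusted p = 2.1e-04). Of the 20 alternatives 6 called it, with differences from 1.94 to 2.17 and adjusted p from 2.3e-05 to 0.34. Mixed 3 was also the library with the fewest gene names at 1 count or more, 18461 against 20494 to 27307 in the others. Its total of 19164405 counts was nevertheless the highest of the 9 libraries.

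Of the remaining genes, Mcl1 did not overlap between luminal and basal libraries and came closest to the threshold. Mcl1 encodes a short-lived pro-survival protein (chromosome 3, 95566099 to 95570487, plus strand). It was measured at 198, 174 and 187 CPM in basal, 239, 242 and 272 CPM in luminal and 201, 209.8 and 182 CPM in mixed libraries. Luminal libraries stood above all others, and basal and mixed libraries overlapped. The luminal minus basal difference was 0.43 ± 0.15 (adjusted p = 0.051), and 4 of 20 alternatives called it, with an adjusted p between 0.0085 and 0.37. In all, 4 of the 10 genes (Bcl2l1, Bid, Bmf and Mcl1) had luminal and basal libraries that did not overlap, against 46.6% of tested genes.

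Bax, Bcl2, Bcl2l11, Bbc3, Pmaip1 and Bak1 overlapped between luminal and basal libraries. Bax, the effector kept in the cytosol until activated, was measured at 83.7, 112 and 98.8 CPM in basal, 124, 169 and 106 CPM in luminal and 103, 97.3 and 105 CPM in mixed libraries. Of its exon bases 12.2% are shared with a gene named Gm45808 on the same strand. The luminal minus basal differences were 0.44 ± 0.19 for Bax (adjusted p = 0.12), 0.37 ± 0.30 for Bcl2 (0.40), 0.32 ± 0.24 for Bcl2l11 (0.39), 0.09 ± 0.20 for Bbc3 (0.81) and -0.16 ± 0.48 for Pmaip1 (0.86). For Bcl2, Bcl2l11, Bbc3 and Pmaip1 these estimates leave room for a difference in either direction. The sign of the Bbc3 difference turned with scaling by library size, where it was -0.06. That of Bcl2 turned with the code series as a term, where it was -0.05 and rested on luminal 1 alone for the luminal side. Pmaip1 was a gene of low counts, 42 to 152 in a library, at 5.38, 3.53 and 3.39 CPM in basal, 2.27, 3.09 and 5.66 CPM in luminal and 4.12, 4.86 and 8.28 CPM in mixed libraries, and it passed in none of the 3 contrasts nor in any alternative.

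**Figure D2:**
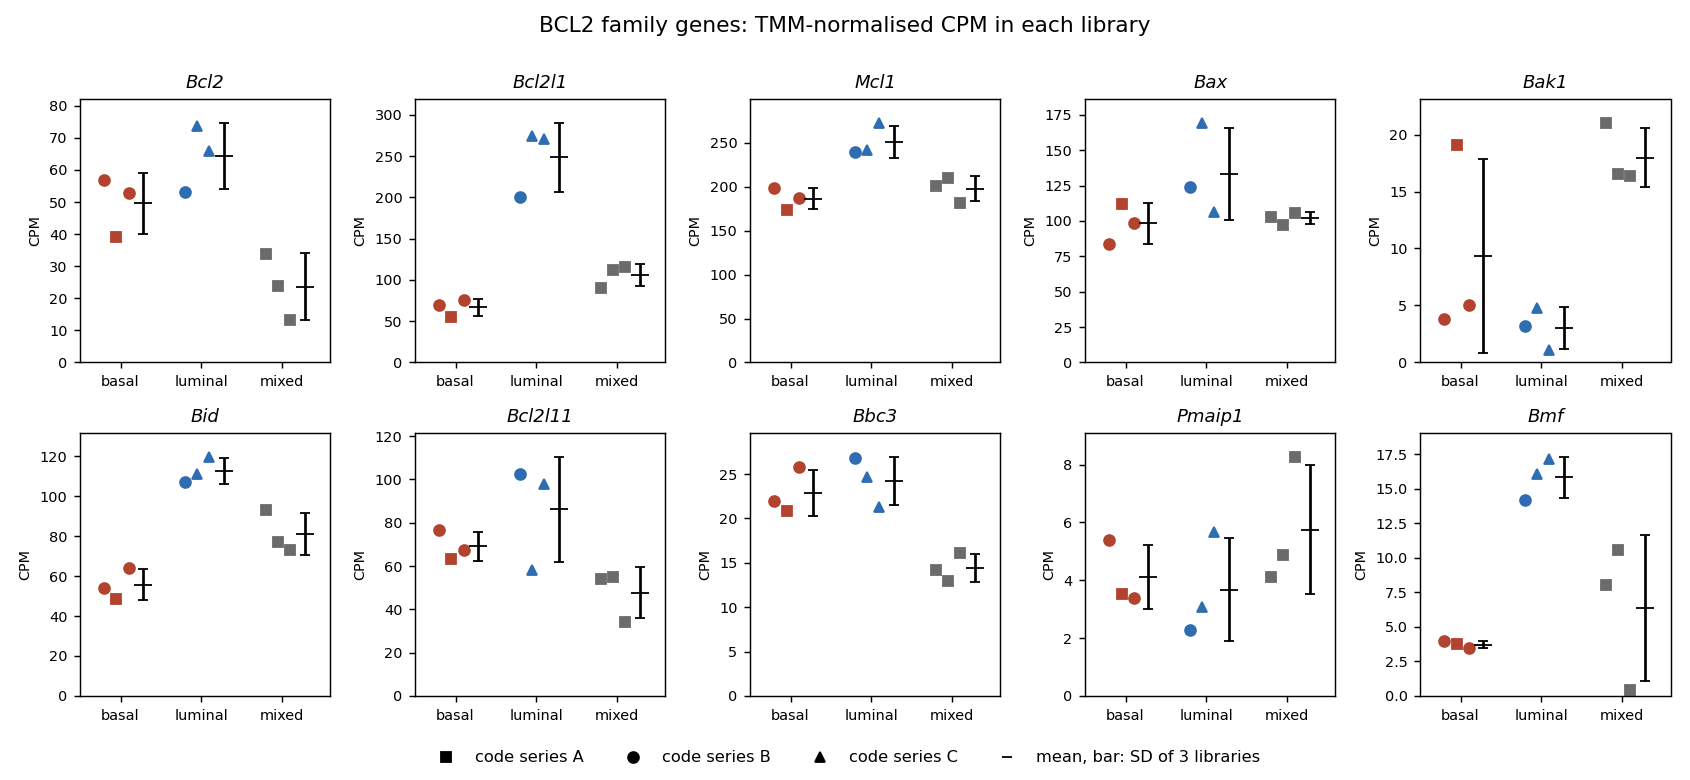
TMM-normalised CPM of the 10 genes (each vertical axis starts at 0), 1 point per library in the order of the title numbers, shaped by code series, with the group mean and SD (n = 3) to the right of the points. The luminal points of Bcl2l1, 200.3 to 274, lie above all others, the 4 square points of Bak1 (series A) lie at 16.4 to 21.0 above the other 5, and mixed 3 lies at 0.436 for Bmf.

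The stretches around the transcription starts of Bcl2l1, Bid and Bmf, the genes with the largest luminal minus basal differences upward, are shown with that of Bcl2, which was lowest in mixed libraries. Each runs 5′ to 3′ on the gene's strand from 250 bases before to 50 bases after a start in RefSeq (build GRCm38.p6, which is not the mm39 build of the counts). Where a gene has several starts, that with the most motif matches is shown, or the most upstream on a tie. Capitals mark GC boxes (GGGCGG on either strand), the binding sequence of SP1.
Bcl2l1, chr2:152831679-152831978, minus strand: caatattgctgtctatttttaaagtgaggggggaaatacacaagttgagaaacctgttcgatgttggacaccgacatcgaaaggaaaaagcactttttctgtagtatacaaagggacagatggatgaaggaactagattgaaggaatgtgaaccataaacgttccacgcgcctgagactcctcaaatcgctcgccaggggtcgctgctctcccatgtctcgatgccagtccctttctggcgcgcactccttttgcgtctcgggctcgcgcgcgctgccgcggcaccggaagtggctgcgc
Bid, chr6:120916775-120917074, minus strand: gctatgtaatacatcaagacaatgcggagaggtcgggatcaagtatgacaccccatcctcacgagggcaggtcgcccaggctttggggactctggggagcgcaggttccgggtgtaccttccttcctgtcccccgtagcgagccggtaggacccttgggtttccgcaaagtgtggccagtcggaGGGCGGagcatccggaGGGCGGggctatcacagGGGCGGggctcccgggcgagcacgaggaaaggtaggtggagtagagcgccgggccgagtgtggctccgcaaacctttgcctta
Bmf, chr2:118549637-118549936, minus strand: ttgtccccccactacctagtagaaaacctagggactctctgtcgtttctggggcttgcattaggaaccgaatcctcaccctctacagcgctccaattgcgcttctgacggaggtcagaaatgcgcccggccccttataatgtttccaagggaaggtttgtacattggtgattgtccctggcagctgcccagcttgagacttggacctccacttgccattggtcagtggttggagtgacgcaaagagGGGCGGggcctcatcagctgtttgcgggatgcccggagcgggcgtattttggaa
Bcl2, chr1:106714241-106714540, minus strand: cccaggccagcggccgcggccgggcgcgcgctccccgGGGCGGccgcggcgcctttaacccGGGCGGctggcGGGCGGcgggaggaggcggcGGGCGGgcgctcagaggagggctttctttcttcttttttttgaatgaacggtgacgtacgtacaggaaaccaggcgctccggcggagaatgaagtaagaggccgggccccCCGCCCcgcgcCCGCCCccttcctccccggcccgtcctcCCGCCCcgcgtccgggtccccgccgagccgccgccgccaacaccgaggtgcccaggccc
Bid held 3 GC boxes within 66 bases before its start, Bcl2 held 7 in its window, the Bmf window held 1, and none of the 3 Bcl2l1 windows held any. Over 32851 mouse windows of 300 bases, 35.7% held a GC box. The search covered 16 windows of 9 of the 10 genes, and 10 of the 16 held a GC box. No window of Pmaip1 was searched, so its motifs are not described. A STAT motif (TTCNNNGAA) and an AP-1 motif (TGANTCA) were found in 0 of the 16 and in 8.30% and 7.81% of all windows. The FOXO motif GTAAACA was found in 2 of the 16, 1 each for Bcl2l11 and Bbc3, and in 3.65% of all windows. A p53 half-site was found in 2 of the 16, 1 each for Bax and Bmf, and in 8.36% of all windows. All motifs were searched on both strands. These matches describe letters only, and which starts are used in these cells was not measured.

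Mixed aggregates differed from basal aggregates in 3 of the 10 genes. Bcl2l1 and Bid rose, 1.59-fold and 1.46-fold, and Bcl2 fell to 0.476 of its basal mean. The share called compares with 13.7% of tested genes called in this contrast, 6.39% higher and 7.33% lower. Higher genes made up 46.5% of these calls, and 33.6% when libraries were scaled by their size alone. These 3 calls lay near the threshold and changed easily. Leaving out single libraries left between 0 and 4 of the 10 genes called, and a fit of only the basal and mixed libraries called none of the 10, with 5 of them at an unadjusted edgeR p under 0.05, against 4 in the fit of all 9 libraries.

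Bcl2, the founding pro-survival gene, lies on chromosome 1, from 106465908 to 106642004 on the minus strand, with 6.09% of its exon bases shared with D630008O14Rik on the plus strand. It was measured at 56.9, 39.0 and 52.96 CPM in basal, 53.2, 73.6 and 66.0 CPM in luminal and 33.8, 23.9 and 13.1 CPM in mixed libraries 1, 2 and 3. Every mixed library stood below every pure library, while basal and luminal libraries overlapped. The mixed minus basal difference was -1.07 ± 0.30 (adjusted p = 0.037, edgeR), and 12 of the 20 alternatives kept the call, with differences from -1.43 to -0.72 and an adjusted p from 7.9e-05 to 0.39. It was -0.72 ± 0.41 (adjusted p = 0.39) with the code series as a term, where the contrast rests on basal 2 as the lone basal library of series A. The call ended without basal 1 (adjusted p = 0.12), basal 3 (0.12), luminal 1 (0.051), mixed 2 (0.084) or mixed 3 (0.069).

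For Bcl2l1 the mixed minus basal difference was 0.67 ± 0.19 (adjusted p = 0.039) and for Bid it was 0.54 ± 0.17 (adjusted p = 0.0499). Of the 20 alternatives 8 kept the Bcl2l1 call, among them the one with a code series term (0.95 ± 0.20, adjusted p = 0.035), and the range of adjusted p was 0.017 to 0.13. With that term the contrast rests on basal 2, the lone basal library of series A and the lowest basal library for Bcl2l1 (54.999 CPM). The Bcl2l1 call ended without basal 1 (0.11), basal 3 (0.081), luminal 2 (0.052), luminal 3 (0.053), mixed 1 (0.051), mixed 2 (0.11) or mixed 3 (0.12). The Bid call ended when any 1 of the 9 libraries was left out, with an adjusted p from 0.063 to 0.17, and 4 of the 20 alternatives kept it. The sign of both differences held in all 20.

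Among the genes that did not pass, Bbc3 was closest. Bbc3 (chromosome 7, 16042318 to 16052130, plus strand) is a target of p53. It was measured at 21.96, 20.8 and 25.8 CPM in basal, 26.8, 24.6 and 21.3 CPM in luminal and 14.2, 12.98 and 16.1 CPM in mixed libraries. Every mixed library stood below every pure one, as for Bcl2. The mixed minus basal difference was -0.66 ± 0.21 (adjusted p = 0.055, edgeR), and 6 of 20 alternatives called it, over a range of 0.013 to 0.37. The fit without basal 2 called it (-0.74 ± 0.22, adjusted p = 0.028), but there no code series holds both basal and mixed libraries. With the code series as a term it was -0.53 ± 0.29 and not called, where the contrast rests on basal 2 as the lone basal library of series A. Bcl2l11, which encodes BIM, gave -0.53 ± 0.25 (adjusted p = 0.17), with mixed libraries again below all basal libraries. Bmf gave 0.77 ± 0.71 (adjusted p = 0.51), and 1.31 ± 0.29 (adjusted p = 0.020) with mixed 3 left out. Mcl1, Bax and Pmaip1 gave 0.08 ± 0.15, 0.05 ± 0.19 and 0.49 ± 0.48 (adjusted p = 0.75, 0.88 and 0.53). Scaling by library size turned the sign for Mcl1 (-0.08) and Bax (-0.09). Basal and mixed libraries did not overlap for 5 of the 10 genes, against 33.1% of tested genes.

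**Figure D3:**
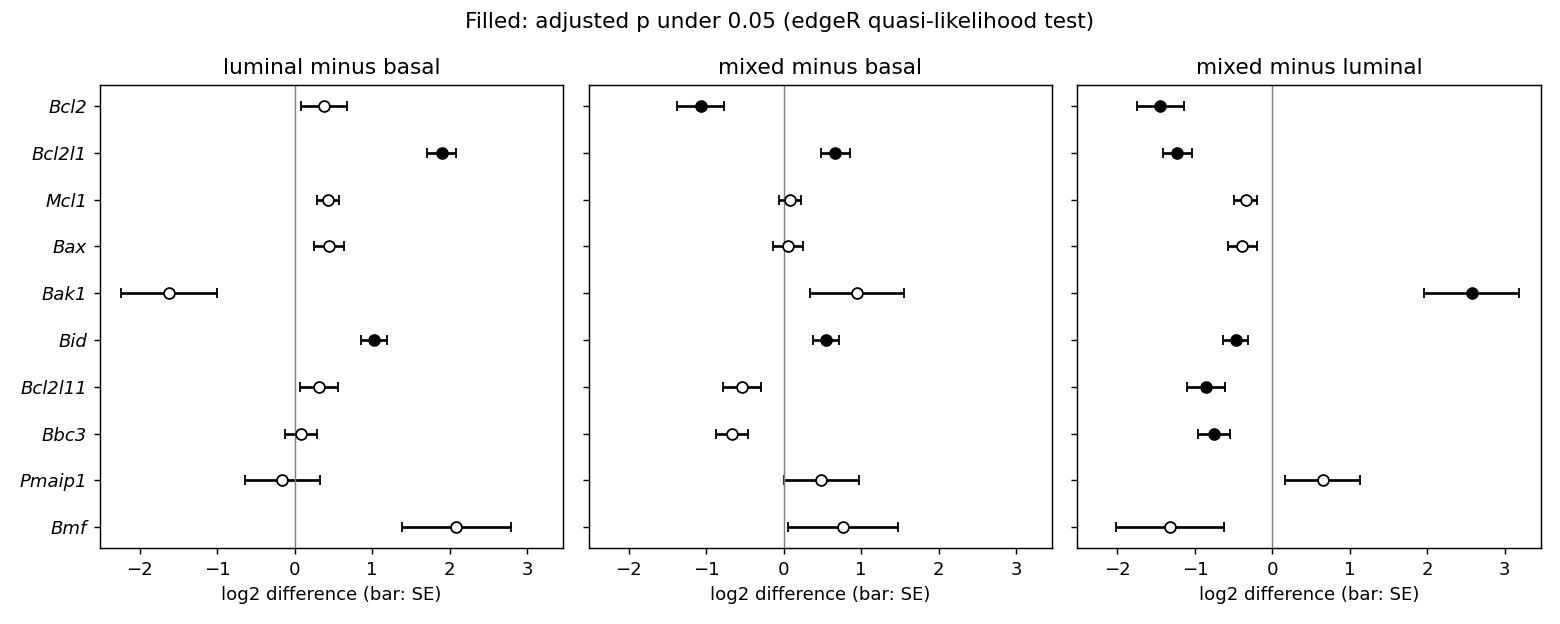
Log2 difference of each of the 10 genes in the 3 contrasts, with bars for the SE and filled points for an adjusted p under 0.05. Bcl2l1 and Bid are filled in all 3 panels, at 1.90, 0.67 and -1.23 and at 1.02, 0.54 and -0.48, and Bcl2 is filled in both contrasts of mixed libraries.

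Mixed aggregates differed from luminal aggregates in 6 of the 10 genes. Bcl2, Bcl2l1, Bid, Bcl2l11 and Bbc3 fell, and Bak1 rose. The background was 29.4% of tested genes called, 15.2% higher and 14.2% lower, and 9 of the 10 genes did not overlap between the groups against 51.1% of tested genes. No code series held both mixed and luminal libraries, and with the series as a term this contrast is reached only through the basal libraries. In that edgeR fit 0 of the 10 genes were called and 0 had an unadjusted p under 0.05 (adjusted p from 0.52 to 0.96), so that the kind of aggregate and the code series cannot be told apart here.

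Bcl2 gave a mixed minus luminal difference of -1.44 ± 0.30 (adjusted p = 0.0057) and Bcl2l1 one of -1.23 ± 0.19 (adjusted p = 0.0011). Each kept its call in 18 of 20 alternatives, and lost it with the series as a term (-0.68 ± 0.60 and -0.52 ± 0.29, adjusted p = 0.75 and 0.53) and with the series C libraries left out (adjusted p = 0.13 and 0.065). Bid fell by 0.48 ± 0.16 on the log2 scale (adjusted p = 0.049), and 7 of 20 alternatives kept that call, over a range of 0.014 to 0.96. Without basal 1, basal 3, luminal 1, luminal 2, luminal 3, mixed 2 or mixed 3 its adjusted p was between 0.051 and 0.13.

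Bcl2l11 (chromosome 2, 127967958 to 128004467, plus strand) was measured at 76.5, 63.2 and 67.6 CPM in basal, 102, 58.2 and 97.97 CPM in luminal and 54.2, 55.1 and 33.9 CPM in mixed libraries. Luminal 2 lay well below luminal 1 and 3 and below every basal library, nearest to mixed 1 and 2. Mixed libraries were the lowest. The mixed minus luminal difference was -0.85 ± 0.25 (adjusted p = 0.024), kept in 15 of 20 alternatives over a range of 4.1e-04 to 0.52. It ended without luminal 1 (0.093), luminal 3 (0.085) or mixed 3 (0.080). For Bbc3 the difference was -0.75 ± 0.21 (adjusted p = 0.020), kept in 15 of 20 over a range of 0.0022 to 0.57, and it ended without luminal 1 (0.077), mixed 1 (0.055) or mixed 2 (0.060). Mcl1 and Bax gave -0.35 ± 0.15 and -0.39 ± 0.19 (adjusted p = 0.0997 and 0.15), Bmf -1.32 ± 0.70 (0.18) and Pmaip1 0.65 ± 0.48 (0.33). Mcl1 was called without basal 2 (adjusted p = 0.042).

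Bak1, whose protein sits in the outer mitochondrial membrane and opens it as BAX does, divided the libraries by code series. It lies on chromosome 17, from 27238784 to 27247983 on the minus strand, and 25.5% of its exon bases are shared with Ggnbp1 and Gm50253 on the plus strand. Libraries held 3.80, 19.1 and 5.06 CPM in basal, 3.24, 4.75 and 1.06 CPM in luminal and 21.0, 16.6 and 16.4 CPM in mixed 1, 2 and 3. Basal 2 stood with the mixed libraries, far above basal 1 and 3, so all 4 libraries of series A (16.4 to 21.0 CPM) lay above the other 5 (1.06 to 5.06 CPM). The same was seen for 12.2% of tested genes. The mixed minus luminal difference was 2.57 ± 0.62 (adjusted p = 0.013, edgeR), kept in 18 of 20 alternatives, and it was 0.36 ± 0.95 (adjusted p = 0.96) with the series as a term.

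The mixed minus basal difference of Bak1 was 0.95 ± 0.60 (adjusted p = 0.32). Within series A it was -0.09 ± 0.63 (adjusted p = 0.97), and without basal 2 it was 2.01 ± 0.49 (adjusted p = 0.019), over a range of 0.019 to 0.97 in all alternatives. Luminal minus basal gave -1.62 ± 0.62 (adjusted p = 0.079), and 3 of 20 alternatives called it, namely DESeq2 (adjusted p = 0.030), no filter on low counts (0.0016) and leaving out basal 1 (-1.94, adjusted p = 0.037). It stood at -0.56 ± 0.50 without basal 2, and the adjusted p ranged from 0.0016 to 0.81. Of 7 immune markers 2, Lyz2 and Cd74, divided the libraries in the same way. The immune markers summed to 3.79, 4.62 and 47.5 CPM at the lowest, median and highest basal library, to 22.1 to 51.5 CPM in luminal and to 43.4 to 65.7 CPM in mixed libraries. Cd74 itself stood at 27.3 CPM in basal 2 and 26.3 to 36.4 CPM in mixed libraries, against at most 1.88 CPM in the other 5. The part of these markers in the Bak1 values was not tested.

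Bcl2 and Bbc3 divided the libraries by series in the other direction. All 4 libraries of series A lay below the other 5 for Bcl2 (13.1 to 39.0 against 52.96 to 73.6 CPM) and for Bbc3 (12.98 to 20.8 against 21.3 to 26.8 CPM), as did 11.3% of tested genes. For both genes basal 2 was the highest of the 4 libraries of its series and the lowest of the basal ones.

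Values of the mixed libraries were then set against the midpoint of the pure groups, where an equal mixture of unchanged cells with equal RNA content would lie. On a linear scale from basal (0%) to luminal (100%), mixed libraries averaged 44.6% for Bid, 21.7% for Bcl2l1, 21.7% for Bmf, 17.2% for Mcl1 and 10.4% for Bax. For Bid mixed 1, 2 and 3 lay at 65.5%, 37.6% and 30.7%, on both sides of the midpoint. For Bcl2l1 they lay at 12.98%, 25.2% and 26.9%, all nearer to basal. Bmf lay at 35.5%, 56.7% and -27.1%, with a mean of 46.1% without mixed 3 (the library with 8 counts), 4.18% without mixed 2 and 14.8% without mixed 1. Mcl1 lay at 22.7%, 36.1% and -7.09%, with a mean of 29.4% without mixed 3 and 7.82% without mixed 2. Bax lay at 13.1%, -2.60% and 20.6%, with a mean of 16.9% without mixed 2 and 5.28% without mixed 3. The averages of these 3 genes therefore each rest on single libraries. Bcl2, Bcl2l11 and Bbc3 averaged below both pure groups, and Bak1 and Pmaip1 above both. In a test that asks for a difference from both pure groups in the same direction, 0 of the 10 genes passed in edgeR (adjusted p = 0.18 for Bcl2 and 0.22 for Bbc3), against 0.0886% of tested genes, and these 2 genes had an unadjusted p under 0.05. DESeq2 called 1 and limma-voom none of the 10.

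Ratios between members follow from these levels and carry no test. Per kilobase, Bcl2l1 exceeded Bcl2 by 2.44, 2.82 and 2.84 times in basal, by 7.52, 7.42 and 8.19 times in luminal and by 5.32, 9.37 and 17.6 times in mixed libraries. The ratio was thus higher in every luminal and mixed library than in every basal one, and the mixed libraries were spread most widely. Bcl2l1 made up 17.9% to 21.3% of the pro-survival level per kilobase (Bcl2, Bcl2l1 and Mcl1 summed) in basal, 36.6% to 43.1% in luminal and 23.9% to 31.5% in mixed libraries. The pro-survival genes together made up 37.4% to 46.2% of the level of all 10 genes per kilobase in basal, 45.8% to 53.1% in luminal and 41.3% to 45.2% in mixed libraries, so that the groups nearly met or overlapped. Bax exceeded Bak1 by 33.6, 8.97 and 29.8 times in basal, 58.6, 54.4 and 153 times in luminal and 7.48, 8.98 and 9.82 times in mixed libraries, where basal 2 again stood with the mixed ones. The level of all 10 genes summed to 172 to 182 CPM per kilobase in basal, 259 to 302 in luminal and 189 to 199 in mixed libraries.

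**Figure D4:**
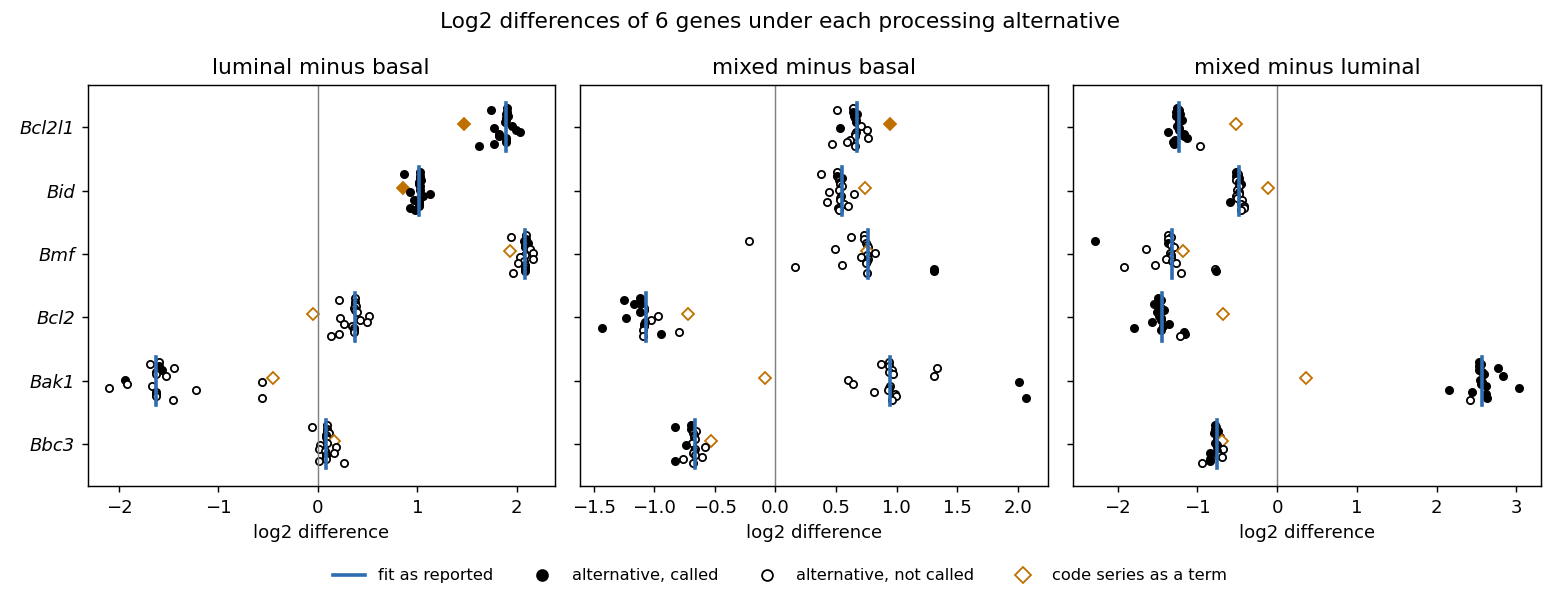
Log2 differences of 6 of the genes in the 3 contrasts, with 1 point for each of the 20 processing alternatives, filled where the adjusted p was under 0.05. Diamonds mark the fit with a code series term and the vertical bars mark the reported fit. In the left panel all points of Bcl2l1 and Bid are filled, and in the middle and right panels the Bak1 diamonds, at -0.09 and 0.36, lie far from the bars at 0.95 and 2.57.

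Outside the 10 genes, the strongest differences of the family were in Bok and Bik. Of 13 further BCL2 family genes 9 were tested, and in luminal against basal libraries 1 rose and 2 fell (33.3% called against 27.1% of all tested genes, median log2 difference 0.17 against -0.02). Bok, an effector relative of Bax and Bak1, fell from 60.4, 74.6 and 75.5 CPM in basal to 3.45, 4.27 and 4.54 CPM in luminal libraries, with 38.6, 34.9 and 53.6 CPM in mixed ones. The log2 difference was -4.10 ± 0.22 (adjusted p = 3.9e-07). Bik, which encodes a BH3-only protein of the endoplasmic reticulum, went the other way, from 6.04, 8.87 and 6.32 CPM in basal to 68.2, 90.1 and 57.4 CPM in luminal and 46.9, 55.6 and 35.7 CPM in mixed libraries (3.34 ± 0.24, adjusted p = 3.5e-06). Both held in all 20 alternatives. Bcl2l12 fell by 1.05 ± 0.22 on the log2 scale (adjusted p = 0.0044), with 33.4% of its exon bases shared with other genes.

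Between mixed and basal libraries Bik rose by 2.70 ± 0.24 (adjusted p = 8.9e-05) and Bok fell by 0.73 ± 0.21 (adjusted p = 0.040), which makes 2 of 9 tested (22.2%, against 13.7% of all tested genes). Between mixed and luminal libraries Bok rose by 3.37 ± 0.22 (adjusted p = 3.9e-06) and Bcl2l12 by 0.75 ± 0.22 (adjusted p = 0.027), again 2 of 9 and here below the 29.4% of all tested genes. The mixed minus luminal Bok call was kept in all 20 alternatives, and the mixed minus basal one in 12 of 20.

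**Figure D5:**
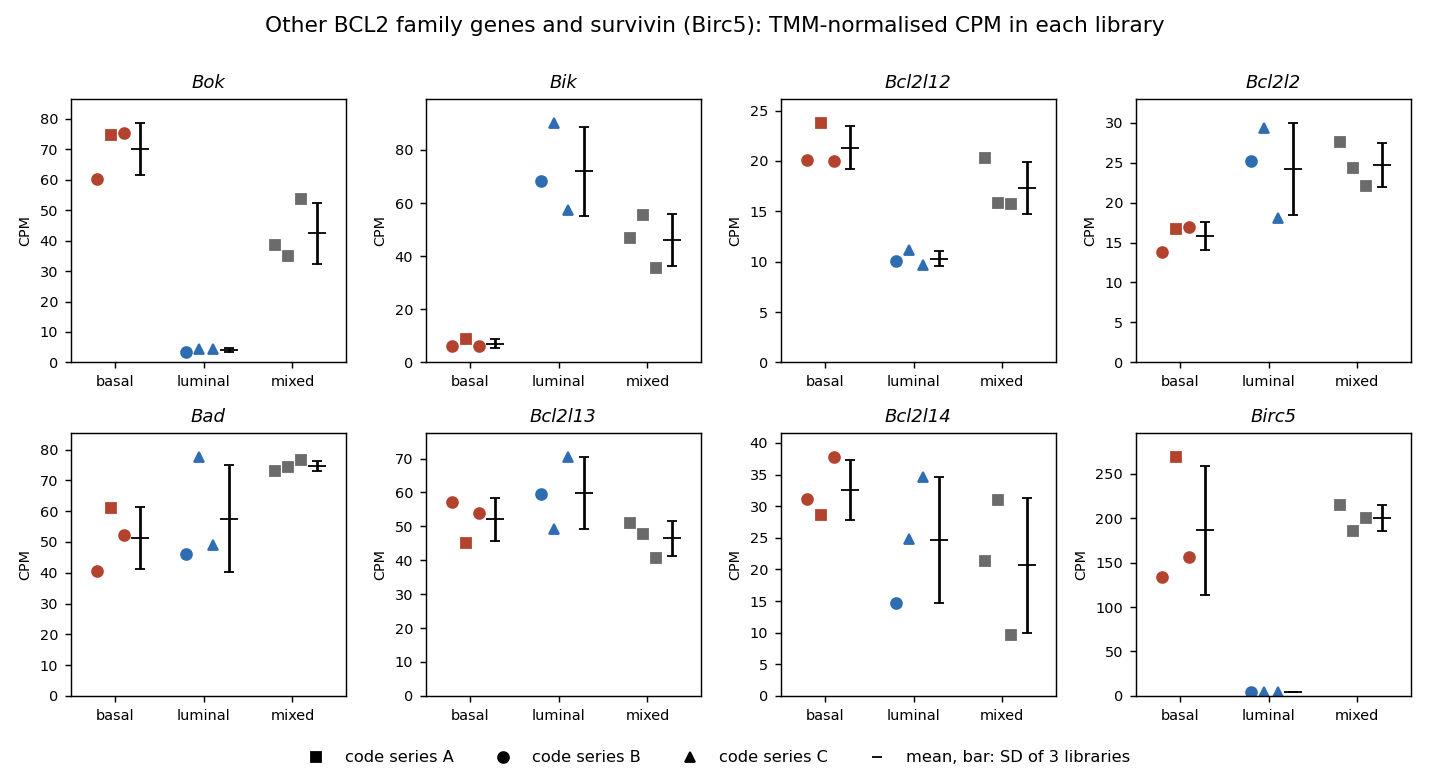
TMM-normalised CPM of the 7 further family genes with the clearest expression and of Birc5 (each vertical axis starts at 0), 1 point per library, shaped by code series, with the group mean and SD (n = 3). Bok and Birc5 are close to 0 in luminal libraries (at most 4.54 and 4.79 CPM), and Bik is at most 8.87 CPM in basal libraries.

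Downstream of the mitochondria, 0 of 13 caspase cascade genes rose and 3 fell in luminal against basal libraries (23.1% called, below the 27.1% of all tested genes, with a median of -0.36 against -0.02). Among those that fell were Htra2 (-0.85 ± 0.20, adjusted p = 0.0089, 43.7% of exon bases shared) and Aifm1 (-0.48 ± 0.15, adjusted p = 0.040). In mixed against basal libraries 2 fell, among them Htra2 (-1.12 ± 0.20, adjusted p = 0.0052). This was 15.4% called, near the 13.7% of all tested genes. Mixed against luminal libraries had 2 up and 1 down (23.1%, below the 29.4% of all tested genes). Cycs, the gene of cytochrome c, rose by 1.28 ± 0.28 (adjusted p = 0.0073) and Casp9, the caspase of the apoptosome, fell by 1.08 ± 0.34 (adjusted p = 0.034). Cycs divided the libraries by code series as Bak1 did, with series A, basal 2 included, at 36.7 to 46.7 CPM and the other 5 at 14.1 to 24.3 CPM.

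Of 6 inhibitor of apoptosis genes, Birc3 rose and Birc5 fell in luminal against basal libraries (33.3% called, against 27.1% of all tested genes). Birc5, the gene of survivin, is also a mitotic gene and went with the proliferation markers, from 134, 269.6 and 156 CPM in basal to 4.64, 4.21 and 4.79 CPM in luminal libraries (-5.36 ± 0.25, adjusted p = 3.0e-07). Birc3 differed by 1.39 ± 0.25 (adjusted p = 0.0017). None of the 6 was called between mixed and basal libraries. Xiap, a direct caspase inhibitor, was higher in mixed than in luminal libraries by 1.16 ± 0.26 (adjusted p = 0.0088). Basal 2 stood with the mixed libraries for Xiap, and series A lay at 79.3 to 107 CPM against 33.0 to 45.4 CPM in the other 5.

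The upstream lists moved in both directions. Of 12 tested death receptor genes 5 rose and 2 fell in luminal against basal libraries (58.3% called, where 27.1% of all tested genes were called, 12.8% higher and 14.4% lower), with Tnf at 2.02 ± 0.35, Fas at 0.96 ± 0.23 and Tnfsf10, the gene of TRAIL, at -1.09 ± 0.33 (adjusted p = 0.0013, 0.0088 and 0.030). Of 16 p53 pathway genes 1 rose and 5 fell (37.5% called). Trp53 itself differed by -1.17 ± 0.21 (adjusted p = 0.0018) and its target Phlda3 by -1.61 ± 0.19 (adjusted p = 6.7e-05), while the p53 targets Bax and Bbc3 did not pass in this contrast. Among 9 tested FOXO and stress factor genes 2 rose and 2 fell (44.4% called). Ddit3, which encodes the stress factor CHOP, and Trib3 differed by 1.51 ± 0.30 and 1.57 ± 0.24 (adjusted p = 0.0035 and 6.3e-04), and Foxo1 by -1.43 ± 0.23 (adjusted p = 8.7e-04).

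In mixed against luminal libraries Trib3 and Ddit3 fell by 2.31 ± 0.25 and 1.75 ± 0.30 on the log2 scale (adjusted p = 9.4e-05 and 0.0024), and Trp53 and Foxo1 rose by 1.18 ± 0.21 and 1.19 ± 0.23 (adjusted p = 0.0028 and 0.0043). Trp53 divided the libraries by code series, with all of series A at 201 to 284 CPM and the other 5 at 80.0 to 176 CPM. With the code series as a term, 4 of the 34 named calls of genes outside the 10 in this contrast were kept, 15 of 32 in luminal against basal and 7 of 16 in mixed against basal libraries.

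Matrix survival signalling, the arm through which integrins and growth factor receptors hold anoikis in check, had 3 genes up and 5 down of 25 in luminal against basal libraries (32% called, near the 27.1% of all tested genes, median -0.17). Cav1, the gene of caveolin, fell by 3.97 ± 0.17 (adjusted p = 1.5e-07), Src by 0.87 ± 0.19 and the laminin receptor gene Itgb4 by 0.58 ± 0.15 (adjusted p = 0.0058 and 0.012). Ptk2b rose by 0.87 ± 0.21 (adjusted p = 0.0099). Mixed against basal libraries had 1 up and 4 down (20% called, against 13.7% of all tested genes), among them Akt1 (-0.998 ± 0.17, adjusted p = 0.0032). Of 11 anoikis effector genes 2 rose and 1 fell in luminal against basal libraries, 27.3% called and so close to the 27.1% of all tested genes. Map3k1 differed by 1.13 ± 0.20 and Sik1 by 1.09 ± 0.31 (adjusted p = 0.0012 and 0.024), and Ptrh2, which encodes the anoikis factor Bit1, by -0.77 ± 0.23 (adjusted p = 0.025). Dynll1, a dynein light chain gene, was higher in mixed than in luminal libraries by 1.27 ± 0.30 (adjusted p = 0.010). It too divided the libraries by code series, with basal 2 at 671 CPM and mixed libraries at 672 to 810 CPM against 229 to 449 CPM in the other 5. Ptrh2 did so in the same direction (79.9 to 92.7 against 33.8 to 64.6 CPM) and Sik1 in the other (10.1 to 19.2 against 26.6 to 56.1 CPM).

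Partners of the family at mitochondria and the enzymes that set MCL1 stability were the last lists. Hk1 and Hk2, hexokinase genes whose products bind the outer mitochondrial membrane, rose in luminal against basal libraries by 1.86 ± 0.23 and 2.10 ± 0.24 (adjusted p = 1.4e-04 and 6.1e-05), as 2 of 10 genes called (20%). Among 8 genes of Mcl1 turnover 2 rose, Mapk3 by 0.95 ± 0.21 and Mapk9 by 0.80 ± 0.22 (adjusted p = 0.0058 and 0.017), which is 25% called. Both shares lie below the 27.1% of all tested genes. The ubiquitin ligase gene Huwe1 was higher and the deubiquitinase gene Usp9x lower in mixed than in luminal libraries, by 0.62 ± 0.16 and -0.74 ± 0.23 (adjusted p = 0.017 and 0.030). Huwe1 stood at 203 to 249 CPM in series A, basal 2 included, and at 144 to 154 CPM in the other 5.

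The tested genes whose pattern over the 9 libraries was most like that of Bcl2l1 were Hexa, a lysosomal hexosaminidase gene, Slc35f5 and Ppm1j. Their root mean square differences from Bcl2l1 were 0.17, 0.18 and 0.20 in log2 CPM centred on each gene's mean. Hexa averaged 19.8, 80.0 and 30.8 CPM and Slc35f5 averaged 47.8, 152 and 76.8 CPM in basal, luminal and mixed libraries.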

How the data were processed

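Raw counts per gene name for 9 libraries were deposited by the authors in 1 table. Per the file headers, read pairs were counted with featureCounts 2.0.1 over exons summed by gene name, without multi-mapped reads and without strand, although the library kit marks strand, so reads of overlapping antisense genes cannot be told apart. Per the submitters' processing notes, Trim Galore and Subread were used and the build was mm39. Aligner settings and the annotation release were not given in the sources used here. Replicates were not pooled.

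Tests were run in edgeR 4.0.16 (R 4.3.3). Genes passed filterByExpr, libraries were scaled by TMM, and all 9 were fitted with the 3 groups as a factor (6 residual degrees of freedom). The 3 contrasts were tested by the two-sided robust quasi-likelihood test with Benjamini-Hochberg adjustment over 18051 genes and a threshold of 0.05. A difference from both pure groups used the larger p of the 2 mixed contrasts. CPM carry no pseudocount. Lists were described by counts and medians. Besides the 10 genes and the markers, up to 3 rising and 3 falling called genes per list and contrast were eligible to be named (mean of at least 10 CPM, groups not overlapping), together with the 3 genes most like Bcl2l1. Beyond this rule, Bcl2l13 is named as the neighbour that overlaps Bid, and the panels of Bcl2l2, Bad, Bcl2l13 and Bcl2l14 were chosen after their values were seen.

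Of 135 symbols in the 11 lists all were measured and 129 tested. The alternatives tried were 2 further scalings, limma-voom (limma 3.58.1), DESeq2 1.42.0, 2 further filters, fitting just the pair of groups compared, a replicate block by title number, the code series as a term (4 residual degrees of freedom) and each library left out. Leaving out basal 2 with mixed 3, and leaving out series C, were added after seeing the data. The 10 genes and all lists were chosen with earlier results of these data known. Libraries are numbered as in the titles, since the descriptions number them differently. The depth limits cover counting error only, as reads carried no molecular identifiers. Some genes of the lists are counted but not reported here by name.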

Additional observations from a re-analysis of the deposited data

How the results depend on the processing

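The luminal minus basal calls of Bcl2l1 and Bid held in all 20 alternatives, 9 of which leave out 1 library. For this contrast, the fits with the code series as a term and without series C rest on luminal 1 alone. Of the 10 genes, the number called in this contrast was 2 in the reported fit, 5 by DESeq2, 4 by limma-voom, 4 with no filter and 2 to 3 with a library left out. In mixed minus basal it was 3, against 0 in a fit of only those groups, 1 with the code series as a term, 5 without basal 2 and mixed 3 together, 0 without series C and 0 to 4 with a library left out. In mixed minus luminal it was 6, against 0 with the code series, 1 without series C and 3 to 7 with a library left out. Outside both pure groups it was 0, against 1 by DESeq2, 1 with no filter, 1 without basal 2 and mixed 3, and 0 to 2 with a library left out. Where no value shows it, the cause was not tested.

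Signs reversed for differences that had not passed. They were Bbc3 luminal minus basal (-0.062) and Mcl1 and Bax mixed minus basal (-0.077 and -0.092) with library size scaling, Bmf mixed minus basal with limma-voom (-0.22), and Bcl2 luminal minus basal (-0.046) and Bax and Bak1 mixed minus basal (-0.14 and -0.089) with the code series. With a library left out, Pmaip1 luminal minus basal ranged from -0.62 to 0.12 and Bax mixed minus basal from -0.041 to 0.14. Of the called other genes, 6 reversed in mixed minus luminal with the code series: Foxo3 (-0.14), Lims1 (-0.055), Erbb2 (0.087), Pxn (0.098), Bcar1 (0.00057) and Vdac3 (-0.045). Of 1640 values over the 82 gene and contrast pairs of called other genes, 1373 kept direction and call and 261 kept the direction and lost the call. List counts stayed within 1.5 times in 464 of 600 values.

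Over all genes, 4899, 2477 and 5309 were called in luminal minus basal, mixed minus basal and mixed minus luminal. With the code series as a term these were 2507, 853 and 491, and without series C 2209 in luminal minus basal and 1239 in mixed minus luminal. In mixed minus basal they were 4004 by DESeq2, 3903 with no filter, 5129 without basal 2 and mixed 3, 1176 without basal 1, 5120 without basal 2 and 963 without basal 3. In mixed minus luminal they were 3243 without luminal 1 and 2967 without luminal 3. Library size scaling moved the median gene from -0.02 to -0.17 in luminal minus basal and from -0.07 to -0.22 in mixed minus basal. With the title number as replicate block the counts were 2, 2, 5 and 0, and Bid lost both mixed calls (adjusted p = 0.072 and 0.070). Same-numbered libraries correlated at -0.17 to 0.20 after group centring, and 4 of 9 libraries correlated best with one of their own number, so the numbers gave no sign of pairing. Counting error weighs most on Bmf in mixed 3 (8 counts, in the library with the most counts in total) and on Bak1 in luminal 3 (17 counts).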

Other observations

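Among the further family genes, Bad, which encodes a BH3-only protein controlled by growth factor signalling, stood at 40.7, 60.9 and 52.3 CPM in basal, 46.1, 77.7 and 48.9 CPM in luminal and 73.1, 74.4 and 76.5 CPM in mixed libraries. Its differences did not pass in edgeR's quasi-likelihood test (0.54 ± 0.22 in mixed minus basal, adjusted p = 0.13). Bcl2l2, a pro-survival relative of Bcl2, stood at 13.8 to 17.0 CPM in basal, 18.1 to 29.4 CPM in luminal and 22.1 to 27.6 CPM in mixed libraries, and basal libraries were below all others (0.61 ± 0.23 in luminal minus basal, adjusted p = 0.070). Bcl2l10 had 0 counts in every library, and Hrk, Bcl2a1a and Bcl2a1b were at 0.246 CPM or less in every library.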
